A study of Mus musculus with 4 samples.

Results

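The B cell and plasma cell genes described here are 33 genes chosen by name, 25 of them placed with B cells, 7 with plasma cells and 1, Cd38, with both. They were looked up by gene symbol among the 35869 genes of the RNA-seq tables, and all 33 had a row in them. Their levels were measured in CD45+ cells from the epididymal white adipose tissue (eWAT) of male wild-type (WT) C57BL/6 mice, which carried no transgene or deletion. From 8 weeks of age, the mice were fed a normal diet (ND) or a high-fat diet (HFD) for 12 weeks, and 2 libraries were sequenced per diet. The cells were drawn from the stromal cells of the fat by microbeads against CD45, which immune cells carry on their surface, with no sort for B cells. How many mice each library held is not stated in the sources used here, so p-values measure the spread between these 4 samples, which may be technical in part. The values are TPM, in which the reads of a gene are divided by its length and every sample is scaled to the same total. Fewer B cells, more of other cells and less of these RNAs per cell can thus not be told apart.

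B cells carry an antigen receptor made of a membrane-bound immunoglobulin and the signalling pair Ig-alpha and Ig-beta. On activation, some become plasma cells, which give up most of the B cell program, enlarge their secretory machinery and release antibodies, with the J chain joining the units of IgM and IgA. In mouse fat, B cells are found among the stromal cells and in lymphoid clusters, and part of them are of the innate-like B-1 kind. The members were divided by textbook knowledge into 20 genes mostly limited to the B lineage (16 of B cells and 4 of plasma cells) and 13 that macrophages, dendritic cells, T cells or stromal cells also use.

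Most members limited to the B lineage were lower in HFD. The lowest shares of the ND mean left in HFD were 10.6% for Jchain, 11.2% for Mzb1 and 11.4% for Blk. The members shared with other cells were divided, with Cd38 at 26.6% of its ND mean and Cd72 and Sdc1 at 391% and 311%. For a test, a gene had to reach 1 TPM or more in 2 or more of the 4 libraries, which 30 members and 16849 genes in all did. Values were compared as log2(TPM + 1) with limma, and a gene was called when its Benjamini-Hochberg adjusted p-value over all genes tested was under 0.05 and its change at least 1.5-fold. Of the 30 members tested, 22 were called. Of all genes tested, 18.4% were called. Among these members, 18 were lower in HFD, where the background of genes called lower was 10.3%, and 4 were higher, where the background was 8.08%. Pax5, Fcer2a, Spib and Bach2 passed the filter through their ND values alone and so had to differ, and no support is drawn from counts over the tested members. Of all 33 members, tested or not, 27 had both HFD values below both ND values, 5 had both above, and 1 overlapped, while 32.8% and 34.1% of all genes tested had these orders.

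With ND replicate 1 or ND replicate 2 left out, 0 of all 16849 genes were called in limma and so 0 members, although 24 and 23 of the 30 had an unadjusted p under 0.05, and the smallest adjusted p was 0.167 and 0.161. Without HFD replicate 1, 24 members and 3051 genes in all were called, and without HFD replicate 2, 25 members and 4232 genes. Each of these fits leaves 1 library in a diet and takes the spread from the other diet alone, so no support is drawn from them. An exact two-sided permutation test of 1 gene cannot go below p = 0.333 with 2 samples against 2.

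**Figure D1:**
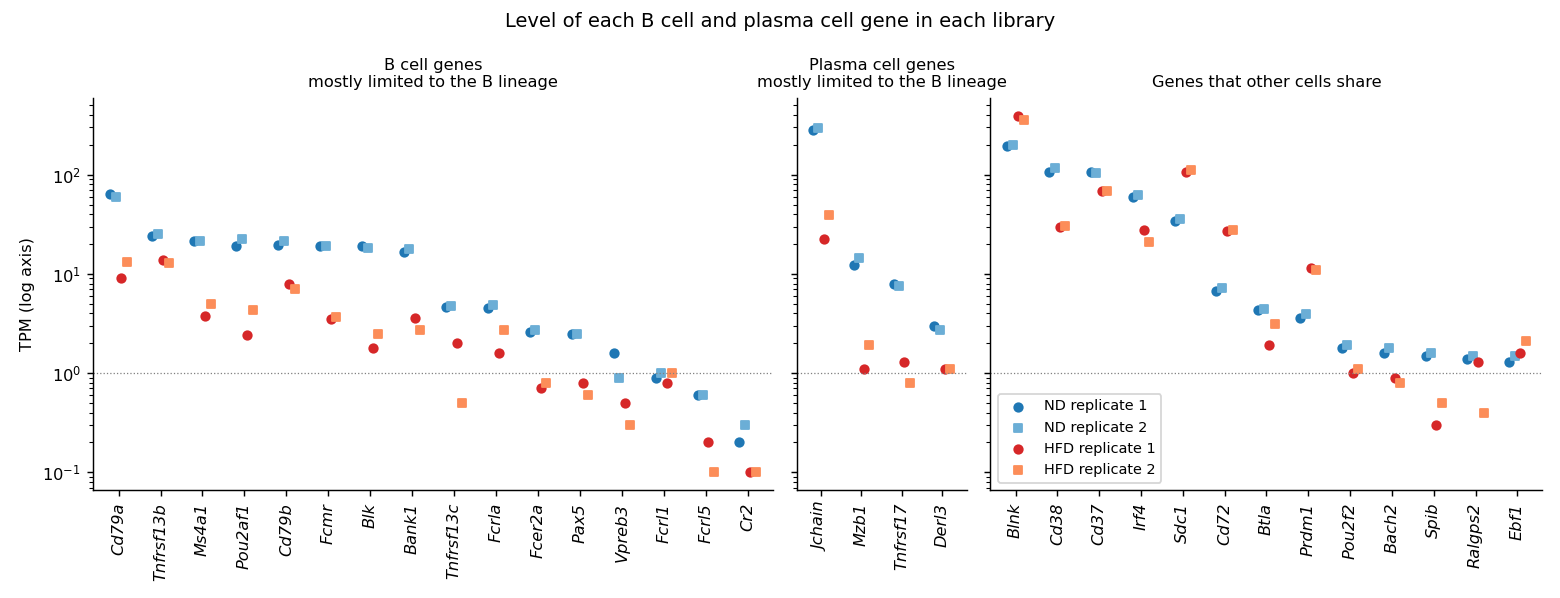
TPM (log axis) of the 33 members in each of the 4 libraries, with ND in blue, HFD in red and orange, and a dotted line at 1 TPM. Jchain falls from 285.5 and 298.4 TPM on ND to 22.5 and 39.5 TPM on HFD, while Cd72, Sdc1, Prdm1 and Blnk sit higher in HFD.

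Other features of the libraries bear on all of these values. Approximately 37600000 to 46800000 reads were counted per library, and the replicates differed by 1.49 times the counting error in ND and 3.38 times in HFD. Ptprc, the gene of CD45, was at 54.5 and 59.4 TPM on ND and 55.3 and 53.7 TPM on HFD. The 10 fibroblast markers summed to 656 and 702 TPM on ND and 3122 and 6212 TPM on HFD, and 5 of the 9 tested were called higher. The 10 spermatid markers summed to 7461 TPM in HFD replicate 1 and to between 1972 and 2249 TPM in the other 3 libraries. Of the 12 T cell markers measured, 11 were tested and 10 called lower, and their sums fell from 428 and 442 TPM to 71.9 and 87.5 TPM. The parts of these other cells in the results for the members were not tested. The constant region genes of the immunoglobulins, whose transcripts are abundant in plasma cells, were not analysed here.

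Sequence upstream of a few members is printed first, to show what lies at the starts of the genes on which the results turn. Promoter windows of RefSeq for GRCm38.p6 (the assembly called mm10), from 250 bases before each start to 50 after it, were given for 29 members and for 27025 genes in all, with more than 1 window for some genes. The windows were searched on both strands for the octamer ATTTGCAT, which Oct proteins and the B cell coactivator of Pou2af1 bind, for the EBF1 core CCCNNGGG, and for GAGGAAGT, a site of PU.1 and Spi-B. The octamer was in the windows of 2 members, Blnk and Vpreb3, and of 1.97% of all genes. The EBF1 core was in those of Bank1, Sdc1 and Spib and of 15.4% of all genes, and the PU.1 and Spi-B site in those of Btla, Cd37, Cd72 and Fcrl1 and of 3.69% of all genes. Each match describes letters in a window and not a bound site. The sequences run 5′ to 3′ on the gene's strand, with the matched motif in capitals. The first 3, without a match, belong to the genes of Ig-alpha, the J chain and BCMA, which were among the members with little left in HFD. Cd79a is on the plus strand at chr7:24897280-24897379, Jchain on the minus strand at chr5:88527898-88527997 and Tnfrsf17 on the plus strand at chr16:11313709-11313808. Bank1 (minus strand, chr3:136326067-136326146) was lower in HFD and Cd72 (minus strand, chr4:43454637-43454716) was higher, while Fcrl1 (plus strand, chr3:87376307-87376386), which holds the same site as Cd72, was not called. In Cd72 and Fcrl1 the site is read as ACTTCCTC, its reverse complement.
Cd79a: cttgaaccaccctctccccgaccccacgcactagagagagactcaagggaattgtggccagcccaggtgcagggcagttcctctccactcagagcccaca
Jchain: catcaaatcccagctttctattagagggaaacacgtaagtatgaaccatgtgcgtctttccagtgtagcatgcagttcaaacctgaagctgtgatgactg
Tnfrsf17: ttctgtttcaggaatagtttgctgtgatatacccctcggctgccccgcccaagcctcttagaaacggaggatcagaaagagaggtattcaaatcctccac
Bank1: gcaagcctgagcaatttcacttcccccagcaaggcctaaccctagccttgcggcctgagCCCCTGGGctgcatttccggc
Cd72: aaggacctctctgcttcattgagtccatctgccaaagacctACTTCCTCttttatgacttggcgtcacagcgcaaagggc
Fcrl1: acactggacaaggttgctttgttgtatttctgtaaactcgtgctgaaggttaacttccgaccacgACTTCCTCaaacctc

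The subunits of the B cell receptor were examined first. Cd79a encodes Ig-alpha, which carries the receptor's signal into the cell, and lies on the plus strand of chromosome 7 (24897381 to 24902197 in mm10, 5 exon blocks of 1457 bases in GENCODE vM21). It measured 63.5 and 60.2 TPM on ND and 9.1 and 13.1 TPM on HFD, approximately 1320 and 1450 reads against 215 and 268. The means were 61.9 ± 2.33 TPM on ND and 11.1 ± 2.83 TPM on HFD (SD, n = 2 each). No HFD value came near an ND value, and the log2 fold change was -2.40 (standard error 0.19, limma adjusted p = 0.00990). Cd79b, the gene of its partner Ig-beta, on the minus strand of chromosome 11 (106311341 to 106314762), fell less, from 19.6 and 21.7 TPM to 8.0 and 7.1 TPM (log2 fold change -1.34, standard error 0.10, limma adjusted p = 0.00909). In ND, Cd79a was 3.24 and 2.77 times as high as Cd79b in TPM, and in HFD 1.14 and 1.85 times. The pair was thus closer in level in both HFD libraries than in either ND library. Vpreb3, which assists receptor assembly in the secretory pathway, was at 1.6 and 0.9 TPM on ND and 0.5 and 0.3 TPM on HFD. It did not reach the filter and rests on approximately 19.6, 12.8, 6.95 and 3.62 reads, so its difference was not tested.

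The kinase and adaptors below the receptor did not move together. Blk, a Src family kinase of B cells, fell from 19.3 and 18.4 TPM to 1.8 and 2.5 TPM, the largest fall in log2 fold change among the tested B cell members (-2.66, standard error 0.15, limma adjusted p = 0.00620). The scaffold gene Bank1, which couples receptor signals to calcium release, fell from 16.8 and 18 TPM to 3.6 and 2.7 TPM (log2 fold change -2.16, limma adjusted p = 0.00794). Both genes lay far below ND in each HFD library. The adaptor gene Blnk went the other way, from 195.2 and 199.9 TPM to 392.9 and 355.2 TPM (log2 fold change 0.92, standard error 0.066, limma adjusted p = 0.00866). BLNK, also called SLP-65, is an adaptor of macrophages as well as of B cells. At approximately 16700 to 38100 reads per library it had the highest TPM of all members in HFD. Ralgps2, a guanine nucleotide exchange factor for Ral, was at 1.4 and 1.5 TPM on ND and at 1.3 and 0.4 TPM on HFD. Only HFD replicate 2 lay well below ND, and the change was not called (log2 fold change -0.45, limma adjusted p = 0.341). It was called without HFD replicate 1 (-0.81, limma adjusted p = 0.0387) and was -0.091 without HFD replicate 2.

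Among surface proteins of mature B cells, Ms4a1 encodes CD20, a tetraspanning membrane protein. It fell from 21.4 and 21.7 TPM to 3.8 and 5.0 TPM (log2 fold change -2.07, standard error 0.14, limma adjusted p = 0.00802). Fcmr, the gene of the Fc receptor for IgM, fell from 19.3 and 18.9 TPM to 3.5 and 3.7 TPM (log2 fold change -2.13, standard error 0.075, limma adjusted p = 0.00449). The HFD libraries were close for Fcmr and kept 18.3% and 19.4% of its ND mean, a share near the 20.4% that Ms4a1 kept. Fcer2a encodes CD23, the low-affinity IgE receptor of follicular B cells. It was at 2.6 and 2.7 TPM on ND and 0.7 and 0.8 TPM on HFD (log2 fold change -1.06, limma adjusted p = 0.0127), and reached the filter in ND alone. Cr2, which encodes the complement receptors CD21 and CD35 of follicular and marginal zone B cells, was at 0.2 and 0.3 TPM on ND and at 0.1 TPM in both HFD libraries, or approximately 23.1, 40.2, 13.1 and 11.4 reads. At that depth it was not tested.

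The Fc receptor-like genes showed little in common. Fcrla, which encodes an intracellular member of the family in germinal centre and activated B cells, was at 4.5 and 4.9 TPM on ND and at 1.6 and 2.7 TPM on HFD. Both HFD values lay below ND, but the change was not called (log2 fold change -0.88, standard error 0.22, limma adjusted p = 0.0678). Without HFD replicate 2 it was called, at -1.13 (limma adjusted p = 0.0322). Fcrl1, an activating coreceptor of B cells, was the single member whose groups overlapped, with 0.9 and 1.0 TPM on ND and 0.8 and 1.0 TPM on HFD (log2 fold change -0.039, limma adjusted p = 0.830, and 0.037 without HFD replicate 1). Fcrl1 just passed the filter, through 1 library of each diet, and Vpreb3 just missed it. Fcrl5, an inhibitory receptor on B-1 and marginal zone B cells, lies 32.8 kb from Fcrl1 on chromosome 3 and was at 0.6 and 0.6 TPM on ND and 0.2 and 0.1 TPM on HFD. It was too low for a test.

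The receptors for the cytokines BAFF and APRIL, which keep B cells and plasma cells alive, differed in how much remained. Tnfrsf13c encodes the BAFF receptor and was at 4.6 and 4.8 TPM on ND and at 2.0 and 0.5 TPM on HFD. Its HFD replicates were far apart, and the change was not called (log2 fold change -1.43, standard error 0.40, limma adjusted p = 0.0834). It was called without HFD replicate 1 (-1.93), without HFD replicate 2 (-0.93) and after quantile normalization (-1.45), a setting in which Spib and Derl3 lost their calls. Tnfrsf13b encodes TACI, a receptor for both cytokines that activated and innate-like B cells carry, and it fell from 24.3 and 25.4 TPM to 13.8 and 12.8 TPM (log2 fold change -0.85, standard error 0.073, limma adjusted p = 0.0106). TACI transcripts thus kept 53.5% of their ND mean, where Cd79a kept 17.9%. The ratio of Tnfrsf13b to Cd79a in TPM was 0.383 and 0.422 in ND and 1.52 and 0.977 in HFD, so both HFD libraries lay above both ND libraries. Whether cells other than B cells contributed to Tnfrsf13b was not tested. Tnfrsf17, on the plus strand of chromosome 16 (11313812 to 11320074), encodes BCMA, the receptor that long-lived plasma cells use. It fell from 7.9 and 7.6 TPM to 1.3 and 0.8 TPM (log2 fold change -2.10, standard error 0.16, limma adjusted p = 0.00934), with approximately 17.1 and 9.17 reads left in the HFD libraries. The ratio of Tnfrsf17 to Tnfrsf13c in TPM was 1.72 and 1.58 in ND and 0.65 and 1.6 in HFD, so the groups overlapped.

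The transcription factors of B cells were mostly low. Pou2af1, which encodes the coactivator OCA-B that germinal centres need, was the exception, and fell from 19.3 and 22.4 TPM to 2.4 and 4.3 TPM (log2 fold change -2.36, standard error 0.27, limma adjusted p = 0.0166). It lies on the plus strand of chromosome 9 (51213708 to 51240080). Its partner Pou2f2, the gene of Oct-2, was at 1.8 and 1.9 TPM on ND and at 1.0 and 1.1 TPM on HFD (log2 fold change -0.48, limma adjusted p = 0.0510, not called). Both of its HFD values were below ND. Pax5, which holds cells to the B lineage, was at 2.5 TPM in both ND libraries and at 0.8 and 0.6 TPM on HFD (log2 fold change -1.04, standard error 0.12, limma adjusted p = 0.0160), having passed the filter through ND. Spib, an Ets factor of B cells and plasmacytoid dendritic cells, was at 1.5 and 1.6 TPM on ND and at 0.3 and 0.5 TPM on HFD. It also passed through ND alone, and its fall was called (log2 fold change -0.87, limma adjusted p = 0.0263). Bach2, which delays plasma cell differentiation and also acts in T cells, was at 1.6 and 1.8 TPM on ND and 0.9 and 0.8 TPM on HFD. Its adjusted p was 0.0460 in limma, but its log2 fold change of -0.54 on the log2(TPM + 1) scale was under 1.5-fold. With a pseudocount of 0.1 it was called, at -0.92 (limma adjusted p = 0.0491). Ebf1, an early B cell factor that fat cell precursors and pericytes also express, did not fall, with 1.3 and 1.5 TPM on ND and 1.6 and 2.1 TPM on HFD (log2 fold change 0.24, limma adjusted p = 0.299). It was 1 of the 5 members with both HFD values above ND.

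The remaining members of the B cell group are surface proteins that other leukocytes share. Cd37, a tetraspanin of B cells and many other leukocytes, fell from 106.2 and 103.0 TPM to 69.3 and 68.7 TPM (log2 fold change -0.59, standard error 0.043, limma adjusted p = 0.00870). This was the smallest called change among the members, just past 1.5-fold. Btla, an inhibitory receptor of B cells, T cells and dendritic cells, was at 4.3 and 4.4 TPM on ND and 1.9 and 3.1 TPM on HFD. The change was not called (log2 fold change -0.63, limma adjusted p = 0.117), except without HFD replicate 2 (-0.88). Cd72, a C-type lectin coreceptor on B cells that macrophages and dendritic cells also carry, rose from 6.8 and 7.2 TPM to 26.8 and 28 TPM (log2 fold change 1.83, standard error 0.071, limma adjusted p = 0.00477). Cd72 lies on the minus strand of chromosome 4 (43446462 to 43454628), and 41.6% of its exon bases are shared with Tesk1 on the opposite strand. Whether the counting used the strand is not stated, so the level of Cd72 is uncertain. Tesk1 was at 125.4 and 123.8 TPM on ND and at 240.5 and 147.1 TPM on HFD. The part of Tesk1 reads in the Cd72 values was not tested.

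The plasma cell genes limited to the B lineage were lower in HFD at each of the 4 members. Jchain, on the minus strand of chromosome 5 (88519809 to 88527891, 4 exon blocks of 2517 bases), encodes the J chain. It fell from 285.5 and 298.4 TPM, approximately 10200 and 12400 reads, to 22.5 and 39.5 TPM, or 916 and 1400 reads. The means were 292 ± 9.12 TPM on ND and 31.0 ± 12.0 TPM on HFD (SD, n = 2 each), a 9.42-fold difference, and the largest fall of any member tested (log2 fold change -3.25, standard error 0.31, limma adjusted p = 0.0123). HFD replicate 2 held more Jchain than HFD replicate 1, and both were far below ND. Mzb1, which encodes a chaperone of the endoplasmic reticulum for IgM in marginal zone B cells, B-1 cells and plasma cells, fell from 12.3 and 14.5 TPM to 1.1 and 1.9 TPM (log2 fold change -2.54, standard error 0.21, limma adjusted p = 0.0105). A second gene model on its strand, SPATA24, shares 57.2% of its exon bases, so its level is uncertain, and the HFD values rest on approximately 21.6 and 32.5 reads. Derl3, which helps clear misfolded proteins from the endoplasmic reticulum, fell less, from 3.0 and 2.7 TPM to 1.1 TPM in both HFD libraries (log2 fold change -0.87, standard error 0.10, limma adjusted p = 0.0179). With no filter on low values, Pax5, Spib, Derl3, Pou2af1, Irf4 and Jchain lost their calls, with adjusted p-values from 0.0532 for Jchain to 0.0769 for Irf4 in limma. With a pseudocount of 5, the changes of Pax5, Spib, Fcer2a, Cd37 and Derl3 were under 1.5-fold and not called.

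The plasma cell members that other cells share went in both directions. Irf4, which both B cells and plasma cells need and which dendritic cells, macrophages and T cells also express, fell from 59.7 and 62.6 TPM to 27.9 and 20.8 TPM (log2 fold change -1.31, standard error 0.17, limma adjusted p = 0.0199). Prdm1, the gene of Blimp-1, the repressor that ends the B cell program in plasma cells, rose from 3.6 and 3.9 TPM to 11.5 and 10.9 TPM (log2 fold change 1.36, standard error 0.088, limma adjusted p = 0.00756). Blimp-1 acts in macrophages and T cells too. Sdc1 encodes syndecan-1, the plasma cell marker CD138, which epithelial cells and some macrophages also carry. It rose from 34.5 and 36.1 TPM to 107.0 and 112.7 TPM (log2 fold change 1.61, standard error 0.056, limma adjusted p = 0.00449). Each HFD library was thus lower than ND for Jchain, Mzb1, Tnfrsf17 and Derl3 and higher for Prdm1 and Sdc1. Cd38, which was placed in both classes, encodes an enzyme that uses NAD and that B cells and macrophages carry. It fell from 107.2 and 117.8 TPM to 29.5 and 30.3 TPM (log2 fold change -1.88, standard error 0.068, limma adjusted p = 0.00449).

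**Figure D2:**
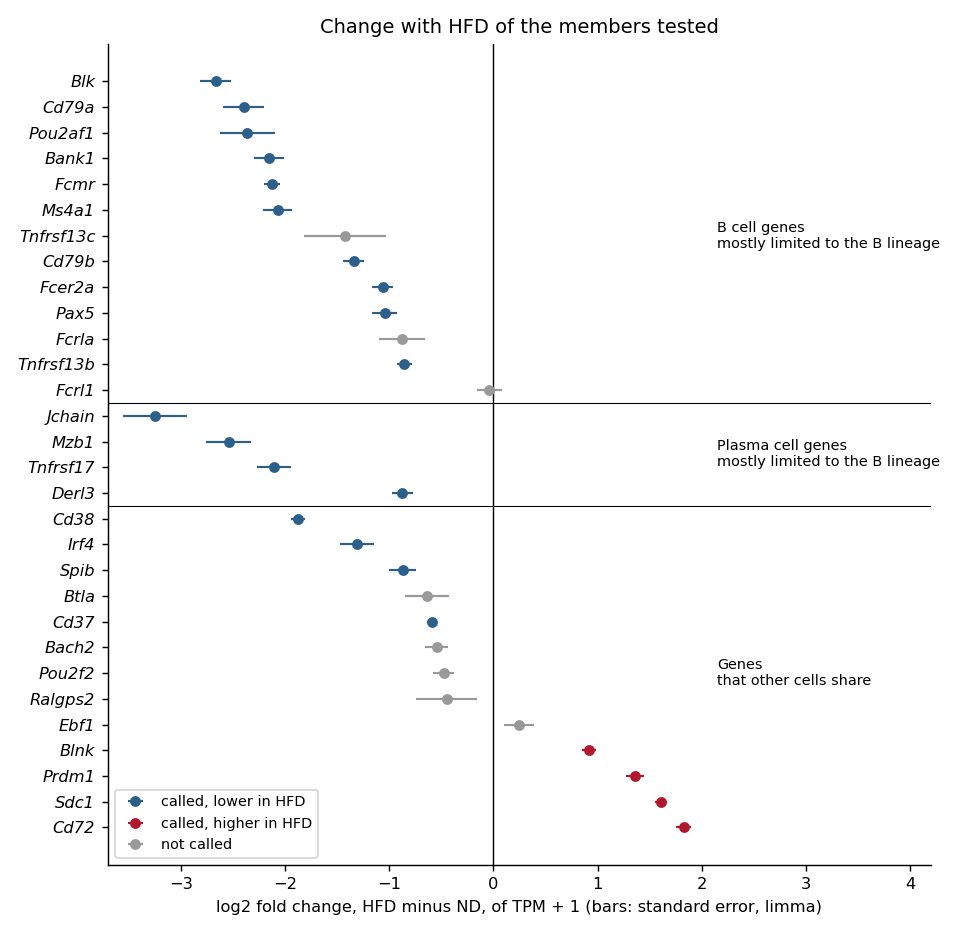
Log2 fold change (HFD minus ND, TPM + 1) of the 30 members tested, with standard errors from limma, in blue where called lower, red where called higher and grey where not called. The called members limited to the B lineage lie left of 0, and the 5 to the right of 0 (Ebf1, not called, and Blnk, Prdm1, Sdc1 and Cd72, called) are genes that other cells share.

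B cell genes were then set against plasma cell genes. The median log2 fold change was -0.87 over the 22 B cell members tested and -1.31 over the 7 plasma cell members, beside 0.056 over all 16849 genes. Among members limited to the B lineage it was -1.43 for the 13 B cell members tested, of which 10 were called lower and 0 higher, and -2.32 for the 4 plasma cell members, all called lower. These 13 include Pax5 and Fcer2a, which passed through ND alone, and leave out Cr2, Fcrl5 and Vpreb3, and over all 16 with no filter the median was -1.20. Of the 3 others, Tnfrsf13c, Fcrla and Fcrl1, the first and second had an unadjusted p under 0.05. Among shared members it was -0.48 for the 9 of B cells, of which 2 were called lower and 2 higher, and 1.36 for the 3 of plasma cells, of which 1 was called lower and 2 higher. The order of the 2 classes thus turned with the choice of members. It also turned with the filter, since the medians were -2.07 for B cell and -1.31 for plasma cell members with a mean TPM of at least 5. All 16 B cell members limited to the B lineage, tested or not, summed to 221 and 224 TPM on ND and 52.7 and 57.3 TPM on HFD. Tnfrsf13b held 24.3 and 25.4 TPM of these sums on ND and 13.8 and 12.8 TPM on HFD. The 4 plasma cell members summed to 309 and 323 TPM on ND and 26.0 and 43.3 TPM on HFD. The plasma cell sum was 1.40 and 1.44 times the B cell sum in ND and 0.493 and 0.756 times in HFD. Jchain made up 86.5% to 92.5% of the plasma cell sum in each library, and without it the ratio was 0.105 and 0.111 in ND and 0.0664 and 0.0663 in HFD. The sum without Jchain holds Mzb1, Tnfrsf17 and Derl3, at 23.2 and 24.8 TPM on ND and 3.5 and 3.8 TPM on HFD. The level of Mzb1 in it is uncertain. In both forms, each HFD library lay below each ND library. With 2 samples per diet, an exact permutation test of such a ratio cannot go below p = 0.333. The ratio of Jchain to Cd79a alone went from 4.50 and 4.96 in ND to 2.47 and 3.02 in HFD.

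The 2 HFD libraries did not order the members in one way. Of the 33 members, 17 were higher in HFD replicate 2, 14 in HFD replicate 1, and 2 had the same value. Jchain, Mzb1, Pou2af1, Cd79a, Blk and Ms4a1 kept more in HFD replicate 2, Jchain with 7.71% of its ND mean in replicate 1 and 13.5% in replicate 2. Tnfrsf17, Bank1, Pax5 and Tnfrsf13c kept more in HFD replicate 1, Tnfrsf13c with 42.6% against 10.6%. Among the T cell markers, 8 of 12 were higher in HFD replicate 2. The ratio of Cd79a to Cd3e, a chain of the T cell receptor complex, was 3.13 and 2.95 in ND and 3.50 and 3.05 in HFD, so HFD replicate 2 fell between the ND values. The 12 T cell markers, some of which other lymphocytes also carry, kept a median of 18.1% of their ND mean, and the B cell members limited to the B lineage a median of 27.3%, with low genes in both lists.

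**Figure D3:**
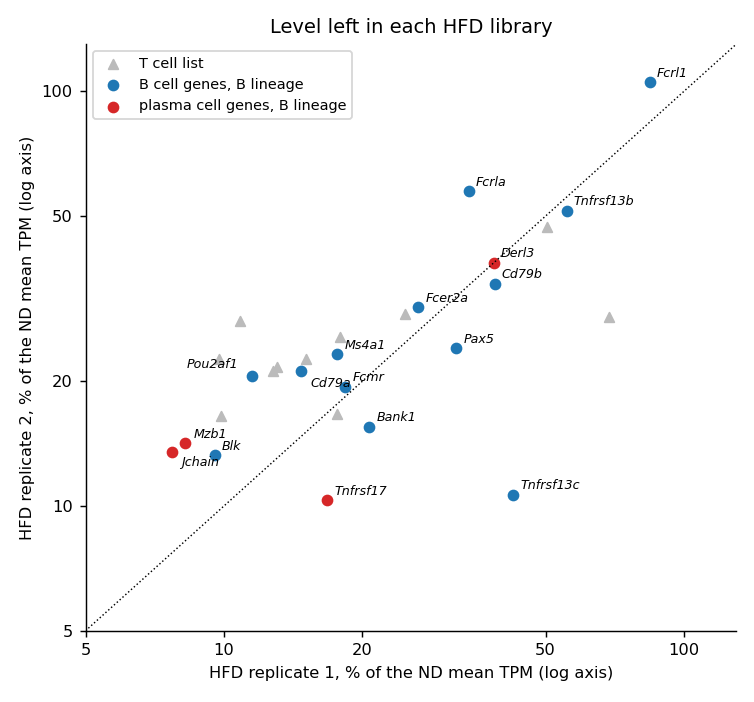
Percent of the ND mean TPM left in HFD replicate 1 (x axis) and HFD replicate 2 (y axis), both on log axes, for the tested members limited to the B lineage and the tested T cell markers, with a dotted line where both libraries are equal. Tnfrsf13c lies far below the line at 42.6% and 10.6%, and Jchain above it at 7.71% and 13.5%.

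Genes of the same pathways outside the members were taken from further lists. Of 21 other genes of B cell receptor signalling, 6 were called lower and 3 higher, with a median log2 fold change of -0.11. Cd81, a tetraspanin found on most cells, fell from 858 and 869 TPM to 370 and 407 TPM (log2 fold change -1.15, limma adjusted p = 0.00605). Fcgr2b, the inhibitory Fc receptor of B cells and macrophages, fell from 463 and 486 TPM to 207 TPM in both HFD libraries (log2 fold change -1.19, limma adjusted p = 0.00449). Cd22, an inhibitory Siglec of B cells, was higher in HFD, at 1.2 TPM in both ND libraries and 2.7 and 2.6 TPM on HFD (log2 fold change 0.73, limma adjusted p = 0.0209).

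Of 10 genes for BAFF, APRIL and B cell homing, 9 were tested, of which 3 were called lower and 0 higher, with a median log2 fold change of -0.62. The ligand gene of BAFF, Tnfsf13b, was at 3.4 and 4.3 TPM on ND and 2.1 and 2.2 TPM on HFD (log2 fold change -0.62, limma adjusted p = 0.0552, not called), and that of APRIL, Tnfsf13, at 65.9 and 68.6 TPM on ND and 52.9 and 48.5 TPM on HFD (log2 fold change -0.40, under 1.5-fold). Cxcl13, the chemokine that draws B cells into follicles and body cavity lymphoid clusters, fell from 69.9 and 76.4 TPM to 6.2 and 5.2 TPM (log2 fold change -3.47, standard error 0.11, limma adjusted p = 0.00439). Its receptor gene Cxcr5 fell from 12.8 and 11.9 TPM to 3.1 TPM in both HFD libraries (log2 fold change -1.70, limma adjusted p = 0.00563). Ligand and receptor were thus both lower in each HFD library, while the 2 survival ligands kept 55.8% and 75.4% of their ND means.

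Plasma cells enlarge a secretory machinery that all secreting cells use. Of 14 such genes, 2 were called lower and 1 higher, beside 18.4% of all genes called in either direction, with a median log2 fold change of 0.068. Herpud1 (log2 fold change -1.21) and Dnajb9 (-0.63), both of the response to misfolded proteins, were lower, and Ell2, an elongation factor that favours secreted immunoglobulin transcripts, was higher (1.94), and Herpud1 and Ell2 are named here after their values were seen. Xbp1, the factor that drives this program in plasma cells, was at 168.7 and 167.1 TPM on ND and at 107.0 and 131.9 TPM on HFD (log2 fold change -0.50, limma adjusted p = 0.0654, not called). Hspa5, the gene of the chaperone BiP, was at 686 and 694 TPM on ND and at 616 and 740 TPM on HFD, so its groups overlapped.

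**Figure D4:**
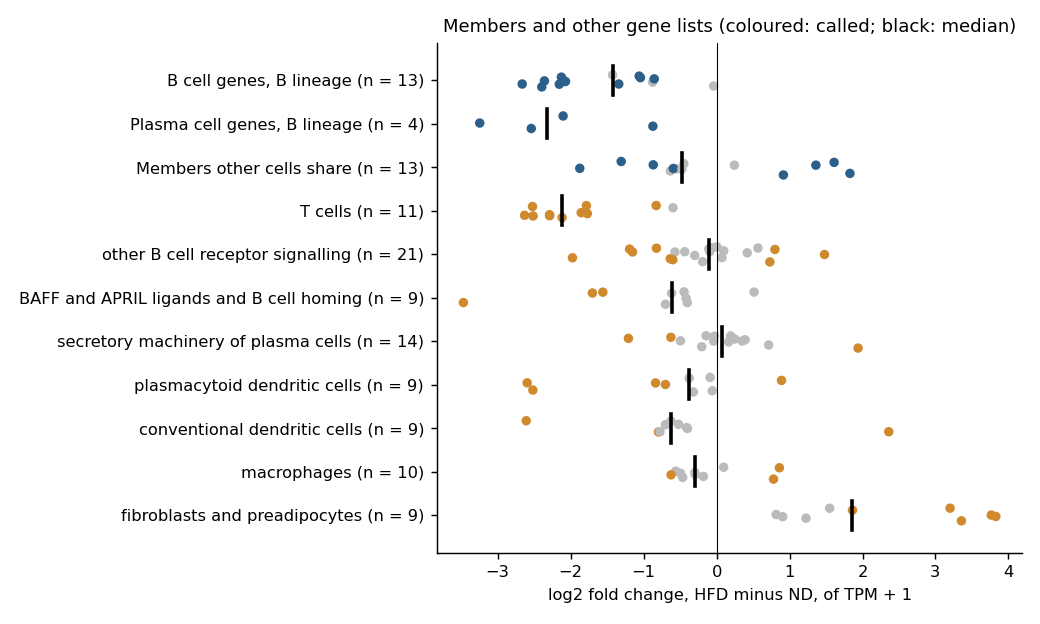
Log2 fold change (HFD minus ND, TPM + 1) of each tested gene, with blue points for called members, orange points for called genes of other lists, grey points for genes not called and a black bar at the median of each list. The members limited to the B lineage and the T cell markers lie to the left (medians -1.43, -2.32 and -2.12), the other receptor signalling and secretory genes around 0, and the fibroblast markers to the right.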

How the data were processed

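The authors made stranded mRNA libraries from CD45+ cells, trimmed reads with Trim Galore 0.4.2 and cutadapt 1.9.1, aligned them to mm10 with STAR 2.6.1e, removed duplicates and counted reads per gene with featureCounts 1.6.2. The deposited values are TPM per gene, printed to 1 decimal. The annotation and the use of strand in counting are not given in the sources used here. Values of the 2 ND and 2 HFD samples were joined by gene symbol, filtered (1 TPM or more in 2 or more samples) and compared as log2(TPM + 1), which understates changes of low genes, with limma 3.58.1 in R 4.3.3 (variance trend, Benjamini-Hochberg adjustment over all 16849 genes). No count model was used, since TPM are not counts. Depth was estimated from the step that 1 read makes in short genes (0.0606 to 0.0711 TPM per read and kb) and exon lengths of GENCODE vM21, so read numbers are approximate and cover counting error only. Replicates differed by more than counting error and were kept as separate samples.

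The members, lists and tests were chosen with earlier results of these data known. All 33 members are named. From the other lists, named genes were the 4 of highest mean TPM or those that define the list. Cd22, Herpud1, Ell2, Bhlhe41, Nt5e and Zcwpw1 were named after their values were seen, and Tesk1 and SPATA24 for their overlaps. The values of some genes of these lists are not reported here. Lists of macrophages, conventional dendritic cells, pericytes, adipocytes and leukocytes were also measured. Alternatives were other pseudocounts (0.1 and 5), filters, scalings and fold limits, no variance trend, a replicate block and each sample left out. The steps were tested on simulated data. Python 3.11.15 and matplotlib 3.10.9 made the figures.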

Additional observations from a re-analysis of the deposited data

How the results depend on the processing

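The count of 22 called members was 13 with the replicate number as a block, where the calls over all genes went from 3097 to 812. With this block, Pax5, Spib, Fcer2a, Cd79b, Cd37, Tnfrsf13b, Prdm1, Irf4 and Derl3 lost their calls. Their limma adjusted p-values ran from 0.0541 for Prdm1 to 0.0838 for Derl3. What the replicate numbers stand for is not stated. The correlation of the deviations of same-numbered samples was -0.015 across 16849 genes, which are not independent. This value does not show whether the numbers pair the samples. The fit with the block also spends a degree of freedom on the shared number. With each sample left out in turn the count ran from 0 to 25, and 0 came from leaving out either ND replicate, where the lone ND sample is assumed to vary like the HFD samples. The other settings gave between 16 of 33 (no filter) and 23. The median log2 fold change of the B cell members (-0.87) was -1.29 with a pseudocount of 0.1, -0.43 with 5, -2.07 for a mean TPM of at least 5 (plasma cell members -1.31), -0.91 after quantile normalization, -0.92 without the 50 highest genes and -1.43 over members limited to the B lineage, and ran from -0.94 to -0.83 with a sample left out. That of the plasma cell members (-1.31) was -1.08 with a pseudocount of 5, -1.59 with Cd38 included and -2.32 over those limited to the B lineage, and ran from -1.51 to -1.10 with a sample left out. The sign of 1 member turned in 1 setting, Fcrl1, which ran from -0.12 to 0.037 with a sample left out and was above 0 without HFD replicate 1. The cause of these shifts was not tested. Values near 0.1 TPM rest on few reads, and Cr2, Fcrl5 and Vpreb3 were too low for a test.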

Other observations

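Genes of other B cell states were also measured. Of 10 genes of B-1 and memory B cells, 9 were tested, of which 3 were called lower and 3 higher. Cd5, which marks B-1a cells and T cells, fell from 11.5 and 12.0 TPM to 2.1 and 3.0 TPM (log2 fold change -1.86, limma adjusted p = 0.0112). Nt5e was also called lower, from 7.8 and 8.4 TPM to 2.5 and 3 TPM (log2 fold change -1.28, limma adjusted p = 0.0116). So was Zcwpw1, from 6 and 6.4 TPM to 3.7 and 3 TPM (log2 fold change -0.73, limma adjusted p = 0.0339). Cd9, a tetraspanin of B-1 and marginal zone B cells that macrophages and many other cells carry, rose from 167 and 171 TPM to 843 and 910 TPM (log2 fold change 2.37, limma adjusted p = 0.00378). Il10, the gene of the anti-inflammatory cytokine that regulatory B cells and macrophages make, rose from 428 and 445 TPM to 778 and 882 TPM (log2 fold change 0.92, limma adjusted p = 0.0107). The third gene called higher was Bhlhe41, a transcription factor of B-1 cells that other cells also use, which rose from 1.6 and 1.7 TPM to 8 TPM in both HFD libraries (log2 fold change 1.76, limma adjusted p = 0.00559). Cd9 and Il10 are shared with macrophages, whose list of 10 markers had 1 called lower and 2 higher, with a median log2 fold change of -0.30.

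Of 8 germinal centre genes, 7 were tested, and 1 was called lower, having passed the filter through ND alone, and 1 higher. Of 8 genes of B cell precursors, 3 were tested, and 1 was called lower and 1 higher. Cd24a, a surface protein of precursors and of many other cells, fell from 265 and 276 TPM to 59.9 and 62 TPM (log2 fold change -2.13, limma adjusted p = 0.00378). Il7r, the interleukin-7 receptor gene of lymphocyte precursors and T cells, rose from 26.4 and 27.8 TPM to 122 and 114 TPM (log2 fold change 2.09, limma adjusted p = 0.00415). Rag1 was at most 0.1 TPM and Igll1 at most 0.5 TPM in each library. Of 13 genes of plasmacytoid dendritic cells, which share Spib and Tcf4 with B cells, 9 were tested, and 4 were called lower and 1 higher. Siglech, which defines these cells in mice, fell from 6.2 and 7.3 TPM to 0.4 and 0.3 TPM (log2 fold change -2.52, limma adjusted p = 0.00576), and had to differ because it passed the filter through ND alone, while Tcf4 was at 3.0 and 3.3 TPM on ND and 2.9 TPM in both HFD libraries. Ly6d, found on plasmacytoid dendritic cell precursors and B cells alike, fell from 41.1 and 42.6 TPM to 4.7 and 7.8 TPM (log2 fold change -2.60, limma adjusted p = 0.0126).

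Of 9 markers of conventional dendritic cells, 2 were called lower and 1 higher, with a median log2 fold change of -0.63. Of 8 pericyte markers, 2 were called in each direction, and of 10 adipocyte markers 3 were called lower, 2 of which passed through ND alone and had to differ, and 1 higher. Of 8 genes of leukocytes in general, 4 were called lower and 1 higher, with a median log2 fold change of -0.36.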
